A study of Mus musculus with 15 samples.

Results

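The genes described here encode interleukins, their receptors and the ligands and receptors of the tumor necrosis factor (TNF) superfamily, measured in liver tumors of mice given carbon tetrachloride (CCl4). They were chosen by gene symbol (Il, Tnfsf or Tnfrsf followed by a number, and Tnf, Lta and Ltb), apart from a further receptor gene not reported here. No measured value is part of this rule, but it was set with earlier results of these data known. The array carried 142 probes for 115 such genes among 55681 probes for 24335 gene symbols. By known function the 115 genes were 37 interleukins, 39 interleukin receptor chains, 4 secreted inhibitors, 13 TNF ligands, 19 TNF receptors and 3 genes that encode neither a cytokine nor a receptor.

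Gene expression was measured on 15 one-colour arrays, each with RNA of 1 whole tumor, in 3 groups of 5. The p53f/f HCC group came from Trp53flox/flox control mice, in which the Trp53 gene is flanked by recombination sites but intact, and the p53LKO HCC and p53LKO ICC groups came from mice with a liver-specific Trp53 deletion. HCC stands for hepatocellular carcinoma, and ICC is the tumor label of the submitters. All 3 groups received the same CCl4 treatment (0.5 µl per g body weight, injected intraperitoneally in olive oil) for 16 weeks, so no untreated liver enters any comparison. The mice were described as males on a C57BL/6J background. The promoter that drives the liver-specific deletion and the age at which each arrayed tumor was taken are not given in the sources used here. The study killed mice at set ages and followed p53f/f mice, which developed tumors later, to a greater age, so age may differ between the HCC groups and cannot be told apart from genotype in that comparison. Further, 2 of the p53f/f tumors came from the same mouse (3717). In p53LKO, 4 mice (3731, 3733, 3976 and 5283) gave both an HCC and an ICC. The p-values below therefore measure the spread between tumors, some of which share an animal.

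Interleukins are secreted proteins by which leukocytes, epithelium and stroma signal to each other, and each acts through a complex of receptor chains, several of which are shared between cytokines. Receptors of the IL-1 family carry an intracellular domain that feeds NF-kappaB, receptors of the IL-2, IL-4, IL-6 and IL-10 families activate JAK kinases and STAT factors, and TNF receptors recruit TRAF adaptors or death domain proteins. In the liver, IL-6 drives the acute phase response of hepatocytes, IL-22 acts on hepatocytes and other epithelium, IL-33 is released from damaged tissue, and TNF takes part in both injury and regeneration.

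Levels are given as log2 of the background-subtracted signal relative to the 75th percentile of all probes on the same array, so a level of 0 is the 75th percentile and a difference of 1 is a doubling. Levels of a gene can be compared between arrays, but not with those of another gene, because each probe has its own brightness. Values in the 5 tumors of a group are listed in the order 3681 T1, 3715 T2, 3716 T1, 3717 T1 and 3717 T2 for p53f/f HCC, 3976 T1, 5283 T7, 3731 T2, 3733 T1 and 3975 T4 for p53LKO HCC, and 3731 T3, 3733 T3, 3976 T8, 3977 T5 and 5283 T20 for p53LKO ICC, where the number names the mouse and T the tumor. A gene with several probes is represented by its brightest. Testing required a probe clearly above local background in 3 or more tumors of either group, and a gene was called where limma's Benjamini-Hochberg adjusted p was under 0.05 and the change over 2-fold. Because tumors were taken whole, fewer cells of a type and less RNA per cell cannot be told apart in any value below.

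Of the 115 genes, 42 were well above background on all 15 arrays and 16 on none, among them Il13, Il17a, Il21, Il5, Il9, Il31, Tnfsf4 and Tnfsf11 (RANKL, the ligand that drives bone-resorbing osteoclasts). For these 16 the data hold no level. Between 66 and 88 genes were above background on the p53f/f HCC arrays and between 63 and 72 on the ICC arrays, while p53LKO HCC split: 61 in 3976 T1 and 47 in 5283 T7, against 77 to 87 in the other tumors. Those 2 arrays and all 5 ICC arrays lay in the lower row of their slide, and every other array lay in the upper row, so row and group overlap in both comparisons. The probe annotated to the targeted gene, Trp53, read -1.01 ± 0.28 (SD, n = 5) in p53f/f HCC, -3.09 ± 0.46 in p53LKO HCC and -3.07 ± 0.70 in ICC, with no overlap between p53f/f and either p53LKO group. That probe is placed on chromosome 17 in mm9, where a Trp53 pseudogene lies, so which locus it measured is not settled.

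**Figure D1:**
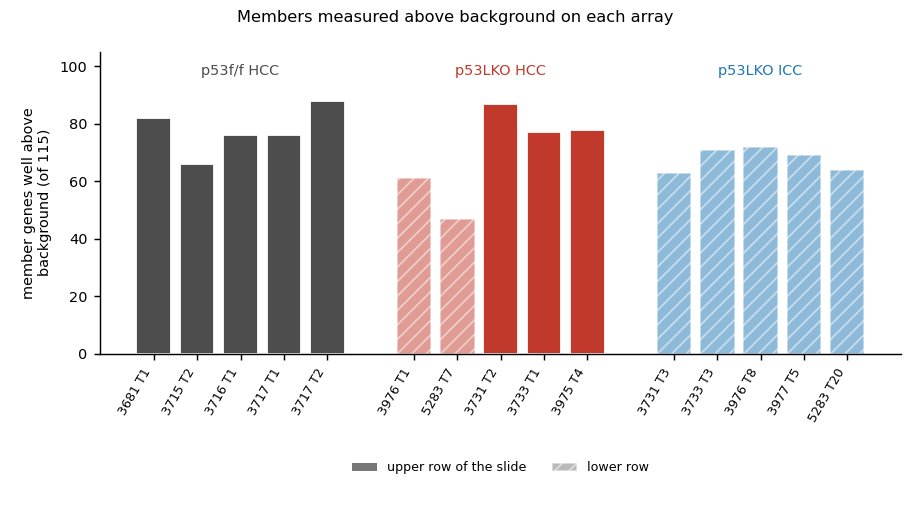
Bars give the number of the 115 interleukin and TNF superfamily genes well above background on each of the 15 arrays (y axis), grouped by tumor type, with hatched bars for arrays in the lower row of a slide. The lowest bars are p53LKO HCC 5283 T7 with 47 genes and 3976 T1 with 61, and the highest is p53f/f HCC 3717 T2 with 88.

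To show the regulatory sequence beside the expression values, RefSeq promoters (GRCm38.p6) were searched on both strands in the 250 bases before each listed start for a STAT motif (TTCNNNGAA), an NF-kappaB motif (GGG and TTCC with any 3 bases between them) and an AP-1 motif (TGANTCA), the factors to which these cytokine receptors signal. Of the 115 genes, 91 had a promoter in the table, with 110 starts in all. The STAT motif was found in 14.5% of these promoters, against 7.02% of all 32851 promoters searched, the NF-kappaB motif in 10.9% against 4.65%, and the AP-1 motif in 16.4% against 6.75%. The promoters below belong to 5 genes to which the comparisons turn and which hold a match. Il1r1 and Il1r2 are neighbours on chromosome 1 that were both higher in p53LKO HCC, Il22ra1 and Il5ra went in opposite directions between the HCC groups, and Tnfrsf18 was higher in ICC. Capitals mark the matched motif, on either strand, and each sequence is printed 5′ to 3′ on the strand of its gene. A match describes these letters and is neither evidence of a bound site nor of a cause.
Il1r1: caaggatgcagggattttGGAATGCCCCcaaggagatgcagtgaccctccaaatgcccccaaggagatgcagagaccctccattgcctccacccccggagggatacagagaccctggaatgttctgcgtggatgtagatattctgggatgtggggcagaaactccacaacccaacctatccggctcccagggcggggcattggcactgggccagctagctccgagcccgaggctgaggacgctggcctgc
Il1r2: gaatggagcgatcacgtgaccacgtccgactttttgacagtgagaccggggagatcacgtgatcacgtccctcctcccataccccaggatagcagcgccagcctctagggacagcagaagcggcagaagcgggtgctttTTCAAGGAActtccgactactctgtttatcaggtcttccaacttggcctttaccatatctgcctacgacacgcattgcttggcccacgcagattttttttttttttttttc
Il22ra1: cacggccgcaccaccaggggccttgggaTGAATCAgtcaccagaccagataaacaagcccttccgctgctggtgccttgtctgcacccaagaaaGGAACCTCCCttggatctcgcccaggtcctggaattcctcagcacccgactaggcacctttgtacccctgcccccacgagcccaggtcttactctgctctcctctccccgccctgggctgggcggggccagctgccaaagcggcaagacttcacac
Il5ra: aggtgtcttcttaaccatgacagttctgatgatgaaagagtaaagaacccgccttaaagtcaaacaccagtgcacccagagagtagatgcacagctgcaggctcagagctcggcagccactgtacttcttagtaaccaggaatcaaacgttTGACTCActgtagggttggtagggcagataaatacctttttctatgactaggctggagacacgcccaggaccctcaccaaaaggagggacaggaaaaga
Tnfrsf18: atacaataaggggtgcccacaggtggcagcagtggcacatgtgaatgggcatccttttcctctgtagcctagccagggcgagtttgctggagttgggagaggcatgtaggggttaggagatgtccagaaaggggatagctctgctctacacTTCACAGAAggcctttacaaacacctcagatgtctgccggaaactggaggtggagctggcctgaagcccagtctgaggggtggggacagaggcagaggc
The Il1r1 window (chr1:40266336-40266585, plus strand, the only one of its 2 listed starts with a match) holds an NF-kappaB match that begins 232 bases before the start. The Il1r2 window (chr1:40085843-40086092, plus strand) holds a STAT match at 111 bases, and the Tnfrsf18 window (chr4:156026072-156026321, plus strand) a STAT match at 99 bases before the start. Il22ra1 (chr4:135727909-135728158, plus strand) holds an AP-1 match at 222 bases and an NF-kappaB match at 156 bases. Il5ra (chr6:106749038-106749287, minus strand) holds an AP-1 match at 99 bases. Of the 23 genes called higher in ICC with a promoter, 5 held a STAT match, 2 an NF-kappaB match and 4 an AP-1 match, beside 16, 12 and 18 of all 91 members with a promoter.

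The first comparison asked how the genes differed between HCC with and without the Trp53 deletion. Of 82 genes tested, 9 were called higher in p53LKO HCC (Il3ra, Il7, Il1r2, Tnfrsf12a, Il22ra1, Il1r1, Il10rb, Il4ra and Il21r) and 2 lower (Il5ra and Il1rl1). All but Il7 and Tnfrsf12a encode interleukin receptor chains: 9 of 33 tested receptor chains were called, against 1 of 20 interleukins, 0 of 8 TNF ligands, 1 of 17 TNF receptors and 0 of 2 inhibitors. Of those 8 ligands and 2 inhibitors, 0 had an unadjusted limma p under 0.05 and 0 were called by the methods' t-test. The 11 called genes were 13.4% of those tested, beside 16% of all 17847 genes tested on the array. For all genes the split ran the other way, with 5.19% called higher and 10.8% called lower. The median log2 fold change of the 82 genes was 0.13, and that of all genes 0.06. The balance depended on the scaling: relative to the 75th percentile of only those probes above background on all arrays, 6 genes were higher and 7 lower while the median of all genes moved to -0.19, and relative to the spike-in controls 26 were higher and 1 lower with a median of all genes of 0.80. The share of members called was then 15.9% beside 17.9% of all genes and 32.9% beside 39.3%. Among upper-row arrays alone (all 5 p53f/f HCC against 3 p53LKO HCC), 9 were called higher and 3 lower (14.6%, beside 15.3% of all genes), and with the slide as a block likewise 9 and 3 (beside 15% of all genes).

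Il3ra, the ligand-binding chain of the IL-3 receptor, showed the largest rise, 10.6-fold. Its probe (chr14:15187898-15187957, mm9) read 1.23, -0.44, -0.02, -0.81 and -0.95 in p53f/f HCC and 2.38, 3.65, 2.56, 3.60 and 3.83 in p53LKO HCC. Every p53LKO HCC lay above every p53f/f HCC, with a log2 change of 3.40 (SE 0.44, adjusted p = 0.000289) by limma. Il5ra, the corresponding chain of the IL-5 receptor on eosinophils and some B cells, fell 8.37-fold (chr6:106660378-106660437). It read -0.14, 0.01, -0.36, 0.28 and 0.06 in p53f/f HCC and -3.59, -3.13, -3.56, -1.99 and -3.21 in p53LKO HCC. No p53LKO tumor reached the p53f/f range, 3733 T1 being the nearest p53LKO tumor, with a log2 change of -3.06 (SE 0.29, adjusted p = 8.66e-05) by limma. Both chains pair with the common beta chain, whose ligands within the set, Il3 and Il5, were too dim to test. Both calls held under every alternative processing in which the gene was measured, but the Il5ra change ran from -3.34 to -1.98, the smallest under normexp.

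The receptors of the IL-1 family on chromosome 1 moved in different directions. Il1r1, the signalling receptor for IL-1, read 0.06, 1.00, -0.23, 0.46 and 0.97 in p53f/f HCC and 2.02, 1.30, 1.90, 1.89 and 1.61 in p53LKO HCC (chr1:40372667-40372726). The p53LKO tumors were all higher, 2.45-fold, with a log2 change of 1.29 (SE 0.27, adjusted p = 0.00411). Il1r2, a decoy receptor that binds IL-1 without signalling, was dim: it read -5.80, -5.18, -4.21, -6.24 and -4.36 in p53f/f HCC, above background on 1 array, and -4.21, -2.40, -1.46, -3.48 and -3.35 in p53LKO HCC, above background on 3. The groups overlapped narrowly, at -4.21 in 1 tumor of each, with a log2 change of 2.18 (SE 0.54, adjusted p = 0.0112). With another background correction (normexp) it was 0.23 and no longer called, so the size of this rise is not settled. Il1rl1 encodes ST2, the receptor for IL-33, and was lower in every p53LKO HCC. It read -2.53, -2.32, -3.12, -2.29 and -2.55 in p53f/f HCC and -4.27, -4.39, -3.29, -4.62 and -4.30 in p53LKO HCC, a log2 change of -1.61 (SE 0.26, adjusted p = 0.00113). Under normexp the fall was -0.65 and under spike-in scaling -0.88, neither called. The ligands and the other parts of the system, Il1b (0.81), Il33 (0.28), Il18 (-0.42), the accessory chain Il1rap (0.25) and the antagonist Il1rn (0.56), were not called, nor was any of 9 genes of a list of IL-1 and IL-18 pathway genes outside the symbol rule.

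Both chains of the IL-22 receptor rose. Il22ra1, the chain specific to IL-22 and its relatives, read -2.21, -2.54, -2.44, -1.91 and -2.12 in p53f/f HCC and -0.17, -1.69, -0.63, -0.35 and 0.55 in p53LKO HCC (chr4:135310900-135310959), a 3.45-fold difference with no overlap and a log2 change of 1.79 (SE 0.35, adjusted p = 0.00311). A second Il22ra1 probe, which is dimmer, gave -0.14 and was not called, and under normexp the brighter probe gave 0.98, also not called. Il10rb, the chain that the IL-22 receptor shares with the IL-10 receptor, read 0.49, 0.83, 0.61, 0.61 and 0.48 in p53f/f HCC and 2.01, 2.01, 1.82, 1.19 and 2.16 in p53LKO HCC. Here too the groups were separate, with a log2 change of 1.24 (SE 0.20, adjusted p = 0.000994). Relative to the 75th percentile of probes above background on all arrays it was 0.98 and not called. The IL-22 transcript itself read -2.12 to -1.69 in p53f/f HCC and -1.92 to -0.98 in p53LKO HCC, a difference of 0.54 (adjusted p = 0.052 by limma), on a probe that also matches the near-identical gene Iltifb. Il10ra, the chain specific to IL-10, differed by 0.16 and was not called.

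Among the remaining receptors, Tnfrsf12a (Fn14, the receptor for TWEAK) was the only TNF receptor called by its brightest probe. A dimmer probe of Tnfrsf13c was called lower (-1.26), with its brighter probe at -0.52 and not called. Tnfrsf12a read 3.33, 3.40, 3.19, 3.86 and 3.94 in p53f/f HCC and 5.52, 5.18, 4.94, 5.02 and 6.02 in p53LKO HCC (chr17:23812746-23812805), 3.46-fold higher without overlap, with a log2 change of 1.79 (SE 0.25, adjusted p = 0.000402). Its ligand Tnfsf12 (TWEAK) differed by -0.13 on its brighter probe and by 0.79 on a dimmer one, neither called. Il4ra, the chain shared by the IL-4 and IL-13 receptors, read -0.49, -0.82, 0.15, -0.80 and -1.08 in p53f/f HCC and 0.76, 1.09, 0.60, 0.11 and -0.37 in p53LKO HCC, so the groups overlapped, and its log2 change of 1.04 (SE 0.31, adjusted p = 0.0247) passed the threshold in 11 of 24 alternatives. The call was lost without p53f/f HCC 3715 T2, 3717 T1 or 3717 T2 and without p53LKO HCC 3976 T1, 5283 T7 or 3731 T2, and a second Il4ra probe gave 0.46. Il21r, the receptor for IL-21, read -2.23, -2.94, -2.63, -3.28 and -2.59 in p53f/f HCC and -1.87, -1.89, -1.08, -1.86 and -1.82 in p53LKO HCC without overlap. Its log2 change of 1.03 (SE 0.24, adjusted p = 0.00738) lay just past the 2-fold limit and was called in 16 of 23 alternatives, not without p53f/f HCC 3715 T2 or 3717 T1 or p53LKO HCC 3731 T2. With the tumors of mouse 3717 averaged to 1 sample, neither Il4ra nor Il21r was called, which left 7 genes called higher and 2 lower. The Il21r call was also lost with the slide as a block, and the Il4ra call with the slide row as a block and among upper-row arrays alone.

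Il7, a growth and survival factor for lymphocytes made by stroma and hepatocytes, was the only interleukin called. It read -6.73, -5.72, -2.84, -6.39 and -7.07 in p53f/f HCC, above background only in 3716 T1, and -3.37, -4.23, -3.54, -2.40 and -1.47 in p53LKO HCC, above background on 3 arrays. The p53f/f tumor 3716 T1 lay inside the p53LKO range, and the log2 change of 2.75 (SE 0.78, adjusted p = 0.0202) rests on dim values. It was not called under normexp, where the difference was 0.52, under quantile normalization (2.21), with the methods' t-test or without p53f/f HCC 3717 T2. Other members had an adjusted p under 0.05 but changed less than 2-fold: Il4 by 0.94, Il17rc by 0.86, Tnfrsf1a (the main TNF receptor) by 0.68, Il11 by -0.99, Il2ra by -0.87 and Tnfrsf22 by -0.65. Il4 was above background on 1 p53f/f HCC and 3 p53LKO HCC arrays. Its change ran from -0.12 to 1.67 over the alternatives and was called in 5 of 23. Il11 was called lower in 6 of 23 alternatives, among them without p53f/f HCC 3716 T1 or 3717 T2 and without p53LKO HCC 5283 T7 or 3975 T4. Il2ra was called lower in 4 of 23, among them without p53LKO HCC 3731 T2 and with the slide as a block. Tnf itself differed by -0.02 (SE 0.69), with values of -4.11 to -0.71 in p53f/f HCC and -4.18 to -1.59 in p53LKO HCC, and Il6 by -0.23 (SE 0.40). Ltb, the membrane-bound lymphotoxin chain, differed by 1.30 and was not called, and among the upper-row arrays alone the difference was 0.43. It was called relative to the spike-in controls (2.04) and without p53LKO HCC 3733 T1 (1.78). The key members Tnfrsf1b (0.54), Tnfsf10 (0.24), Tnfsf13b (0.28), Tnfrsf21 (-0.27), Il6ra (-0.38), Il2rg (0.18) and Il15ra (0.09) were not called, nor was Il10, which was above background on no p53LKO HCC array. A dimmer Il15ra probe had the opposite sign and was likewise not called. Tnfrsf11b (-0.99) and Il15 (0.84) were not called either, but Tnfrsf11b was without p53f/f HCC 3681 T1 or p53LKO HCC 3731 T2, and Il15 without p53LKO HCC 5283 T7 and among upper-row arrays alone.

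**Figure D2:**
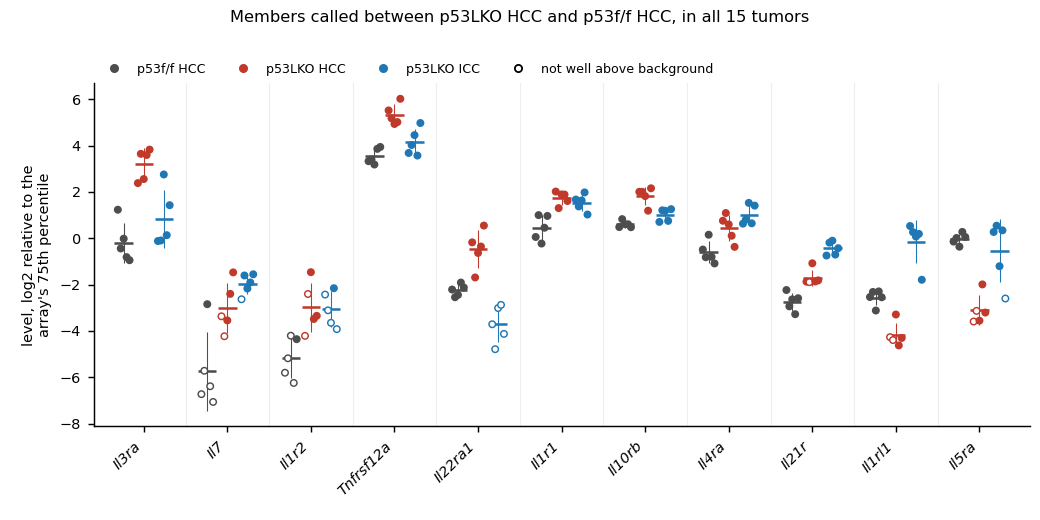
Points give the level of the 11 genes called between the HCC groups (y axis, log2 units from the array's 75th percentile) in all 15 tumors, with the group mean and SD as a bar, and open points are not well above background. Il3ra, Il5ra, Tnfrsf12a, Il10rb and Il1r1 separate the 5 p53LKO HCC from the 5 p53f/f HCC, while Il7, Il1r2 and Il4ra overlap and the first 2 of these are mostly open in p53f/f HCC.

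Cell type markers and pathway genes outside the set were read beside these values. Of 5 neutrophil markers tested, S100a9 (2.10), S100a8 (1.84) and Retnlg (2.22) were higher in p53LKO HCC and Csf3r was lower (-1.55). The mean level of the neutrophil list ran from -1.52 to 0.07 in p53f/f HCC and from -0.23 to 1.39 in p53LKO HCC, with the granule genes Mmp8 and Ngp above background on at most 1 array of either group. None of 9 macrophage, 9 T cell, 4 B cell, 5 biliary or 9 stellate cell and fibroblast markers was called. Single calls were made for the natural killer cell marker Klrb1c (at least 1.32-fold higher, above background on no p53f/f HCC array), the sinusoidal endothelial marker Stab2 (-1.17) and the hepatocyte marker Apob (-1.20). Their part in the receptor differences was not tested. Of 25 adaptor and NF-kappaB genes tested, only Tnip1, an inhibitor of NF-kappaB signalling, was called (1.55), and of 13 genes of IL-6 type signalling Osmr, the oncostatin M receptor, was higher (1.71) while Cntfr (at least 1.37-fold lower, above background on no p53LKO HCC array) and Lif (-1.26) were lower. None of 7 TNF superfamily genes outside the symbol rule was called.

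The second comparison set ICC against HCC within p53LKO mice, and shares its 5 HCC arrays with the first. Many more members differed. Of 80 genes tested, 28 were called higher in ICC and 6 lower, 42.5% of those tested beside 28.4% of all 16962 genes. Over all genes 13.2% were called higher and 15.2% lower. The members' median log2 fold change was 0.40 and that of all genes -0.17. By class, 4 of 17 interleukins, 12 of 33 interleukin receptor chains, 4 of 9 TNF ligands and 7 of 17 TNF receptors were higher, and 1, 4, 0 and 1 were lower. Relative to the 75th percentile of only those probes above background on all arrays, 33 members were higher and 5 lower (47.5%, beside 27.4% of all genes) and the median of all genes moved to 0.19, with 3244 genes then higher and 1407 lower. Among lower-row arrays alone (2 HCC against 5 ICC) 25 were higher and 6 lower (38.8%, beside 21.5% of all genes), and on slide 2 alone (3 HCC against 4 ICC) 26 and 7 (41.2%, beside 25.5%). Among genes above background on every array, 12 of 42 members (28.6%) were called, 8 higher and 4 lower, beside 24.9% of 11686 genes, a smaller excess than among all tested.

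**Figure D3:**
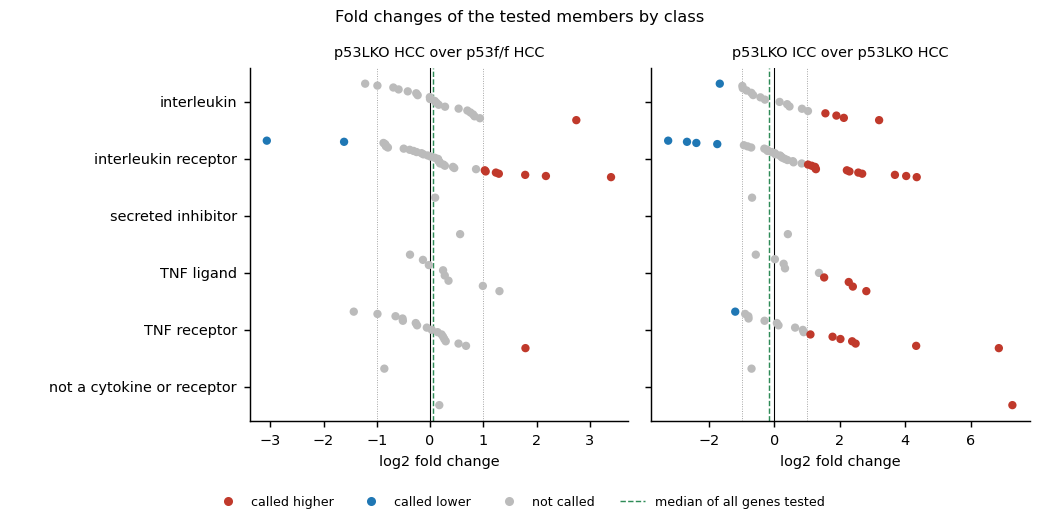
Each point is a tested gene, placed by its log2 fold change (x axis) and class (y axis), for p53LKO HCC over p53f/f HCC on the left and p53LKO ICC over p53LKO HCC on the right; red and blue are called higher and lower, the dashed line is the median of all genes tested and the dotted lines mark 2-fold. Called genes are mostly receptor chains on the left, 11 of 82 in all, and are spread over ligands and receptors on the right, 34 of 80.

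The 2 largest rises were of secreted proteins. Il4i1, a secreted enzyme that oxidises aromatic amino acids and is made by antigen-presenting cells, read -0.87, 0.12, 0.90, -1.14 and -1.51 in p53LKO HCC and 5.88, 7.25, 6.88, 6.13 and 7.74 in ICC (chr7:52096115-52096174), 155-fold higher, with a log2 change of 7.28 (SE 0.49, adjusted p = 7.71e-06) by limma. Its probe also matches Il4i1b. Tnfrsf11b is osteoprotegerin, a soluble decoy receptor for RANKL and TRAIL, and read -2.79, -2.17, -1.41, -2.08 and -3.08 in p53LKO HCC and 3.74, 5.01, 5.06, 3.71 and 5.26 in ICC (chr15:54082760-54082819). Both groups were far apart, 116-fold, with a log2 change of 6.86 (SE 0.40, adjusted p = 3.73e-06). In p53f/f HCC the same probe read -2.38 to -0.80, below every ICC. Its ligand Tnfsf11 was above background on no array, and Tnfsf10 (TRAIL) differed by 0.29 and was not called.

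Receptors of the IL-1 family whose ligands are IL-33 and IL-18 rose together with Il33. Il1rl1 read -4.27, -4.39, -3.29, -4.62 and -4.30 in p53LKO HCC and 0.53, 0.27, 0.08, 0.19 and -1.79 in ICC, without overlap, a log2 change of 4.03 (SE 0.42, adjusted p = 9.37e-05). The ICC 5283 T20 stood below the other ICC but above every HCC. Il18r1, the IL-18 receptor chain, read -4.93, -4.14, -2.38, -4.62 and -4.48 in HCC, above background on 2 arrays, and -0.21, 0.86, 0.71, 0.23 and -0.40 in ICC, a log2 change of 4.35 (SE 0.46, adjusted p = 9.07e-05). Il33, an alarmin stored in nuclei, read -0.72, 0.40, 0.96, 0.49 and 0.66 in HCC and 2.51, 3.72, 2.64, 2.08 and 1.47 in ICC, a log2 change of 2.12 (SE 0.42, adjusted p = 0.00247). Il1b rose by 1.56 (adjusted p = 0.0125 by limma), with HCC 5283 T7 and 3731 T2 inside the ICC range, and with the mouse as a replicate block, a fit that rests on the 4 mice with both tumors, the value was 1.35 and no longer called. Nor was it called with the slide row as a block or among lower-row arrays alone (1.65, adjusted p = 0.0768 by limma). Il1rap, the accessory chain that both the IL-1 and the IL-33 receptor need for signalling, fell. It read 2.62, 2.91, 1.99, 2.63 and 2.66 in HCC and 0.52, -1.97, 0.26, 0.96 and -0.28 in ICC, without overlap, a log2 change of -2.67 (SE 0.47, adjusted p = 0.00136). Il1r1 (-0.20), Il18 (-0.85) and Il1rn (0.41) were not called, though Il18 was without ICC 3731 T3 or 3977 T5. Of 9 IL-1 and IL-18 pathway genes outside the symbol rule, the inhibitor Irak3 was higher (1.38) and the inhibitory receptor Sigirr lower (-1.16).

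Of 10 tested genes of the common gamma chain group (the cytokines that signal through Il2rg, and their receptors), Il2ra, Il2rg, Il7r and Il21r were called higher in ICC. Il2ra (CD25, the high-affinity IL-2 receptor chain of activated and regulatory T cells) read -4.59, -3.45, -2.83, -4.08 and -3.71 in HCC and -1.07, -0.34, -0.70, -0.90 and -2.23 in ICC, a log2 change of 2.69 (SE 0.39, adjusted p = 0.000489). Il2rg, the chain common to the receptors of IL-2, IL-4, IL-7, IL-9, IL-15 and IL-21, read -1.75, -1.33, -0.06, -1.60 and -1.32 in HCC and -0.13, 0.71, 1.85, 0.53 and 2.08 in ICC, where 1 HCC (3731 T2) lay just above the lowest ICC, a log2 change of 2.22 (SE 0.46, adjusted p = 0.00311). Il7r, the IL-7 receptor, rose by 3.69, from -5.14 to -2.25 in HCC to -0.30 to 0.16 in ICC. The Il7r probe was above background on 2 of the 5 HCC arrays, so the size of that rise rests on dim values. These 3 calls held under every alternative that measured the gene. Il21r rose by 1.27, from -1.89 to -1.08 to -0.74 to -0.10, and was 0.90 under normexp. Il5ra rose by 2.57, but with a wide spread, reading 0.27, 0.55, -1.21, 0.34 and -2.60 in ICC so that 5283 T20 lay inside the HCC range, and the call was lost on slide 2 alone (2.19). The other tested genes of the group were not called: Il2rb (0.59), Il15ra (-0.70), Il9r (-0.30), Il7 (1.03, adjusted p = 0.0906 by limma, but called, at an adjusted p of 0.037, with the mouse as a replicate block) and, both above background on no ICC array, Il2 and Il15.

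Of 26 TNF ligands and receptors tested, 11 were called higher in ICC and 1, Tnfrsf12a, lower. Tnfrsf4 (OX40) read -1.09, -1.52, -0.22, -1.03 and -1.16 in HCC and 1.58, 3.64, 3.87, 2.45 and 5.11 in ICC (chr4:155390639-155390698), 20.2-fold higher, with a log2 change of 4.33 (SE 0.56, adjusted p = 0.000272). Its genomic neighbour Tnfrsf18 (GITR), like OX40 a receptor of activated and regulatory T cells, read -2.63, -2.19, -0.60, -2.59 and -1.86 in HCC and 0.57, 0.69, 0.50, 0.65 and 0.14 in ICC (chr4:155402941-155403000), a log2 change of 2.48 (SE 0.35, adjusted p = 0.000408). In p53f/f HCC Tnfrsf18 ran from -2.93 to 1.43, with 3 tumors at 0.54 or above. The ligands of both receptors, Tnfsf4 and Tnfsf18, were too dim to test. Tnfrsf25 (death receptor 3) rose by 2.02 and Tnfrsf21 (death receptor 6) by 1.78, both without overlap. Tnfsf8 (CD30 ligand), above background on 2 of the 5 HCC arrays, rose by 2.40 and Tnfsf9 (4-1BB ligand) by 1.52; under normexp the values were 0.97 and 0.76 and neither was called, and Tnfsf9 was not called on slide 2 alone. Tnfrsf9 (4-1BB) gave opposite signs on its 2 probes, -0.89 on the brighter one, not called, and 1.69 on the dimmer one, called. Tnfrsf14 (HVEM) differed by -0.79 (adjusted p = 0.00939 by limma, under 2-fold), with the opposite sign on a dimmer probe (0.96), and its ligand Tnfsf14 (LIGHT) by 0.02. Tnfsf15 differed by 1.37 and was not called.

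The B cell factor Tnfsf13b (BAFF) and its receptor Tnfrsf13c both rose. Tnfsf13b read -3.27, -4.00, -2.38, -3.71 and -2.77 in HCC and -0.72, 0.13, 0.14, -0.88 and -0.74 in ICC, a log2 change of 2.81 (SE 0.34, adjusted p = 0.000187) that was called under every alternative. Tnfrsf13c was less secure: it read -4.22, -4.14, -4.13, -4.91 and -5.20 in HCC, above background on 1 array, and -3.61, -1.85, -1.07, -0.84 and -3.35 in ICC, above background on 3. Its log2 change of 2.38 (SE 0.54, adjusted p = 0.00524) was not called with the slide row as a block or among lower-row arrays alone (2.04). Of the other BAFF-binding receptors, Tnfrsf13b (TACI) was above background on all 15 arrays and differed by 0.13, not called, and Tnfrsf17, a marker of plasma cells, was above background on 1 ICC array and no other.

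Tnf rose too. It read -4.18, -1.62, -1.59, -3.67 and -3.18 in p53LKO HCC and -0.90, -0.54, -0.65, -0.52 and -0.27 in ICC (chr17:35336795-35336854), so that the ICC lay close together and above every HCC, with a log2 change of 2.27 (SE 0.48, adjusted p = 0.00354). In p53f/f HCC it read -4.11 to -0.71. Of its receptors, Tnfrsf1b (TNFR2) rose by 1.10 (adjusted p = 0.0248 by limma) but was called in 12 of 24 alternatives, not without p53LKO HCC 3976 T1, 3733 T1 or 3975 T4, not without ICC 3976 T8 or 5283 T20 and, at 1.17, not with the mouse as a replicate block. Tnfrsf1a differed by -0.79 and Ltb by 0.33, neither called, and Ltb turned to -0.98 among lower-row arrays alone.

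Among interleukins, Il23a (the p19 chain of IL-23) read -5.25, -3.45, -4.50, -5.71 and -7.08 in HCC, above background on 1 array, and -2.64, -1.31, -0.95, -2.59 and -2.48 in ICC, above background on 3. Its log2 change of 3.20 (SE 0.61, adjusted p = 0.00215) separated the groups, but the size rests on dim values and was 1.12 at its lowest over the alternatives. The partner chain Il12b and the receptor chain Il23r were too dim to test. Il11, a cytokine of the IL-6 family made by fibroblasts and epithelium, read -3.46, -3.21, -3.34, -3.27 and -3.15 in HCC and -1.35, -1.29, -1.03, -1.21 and -2.07 in ICC, a log2 change of 1.90 (SE 0.20, adjusted p = 9.4e-05). Il6 differed by 0.85 and its receptor Il6ra by 0.02, neither called. Il6 was called without ICC 5283 T20 (1.14) and relative to the 75th percentile of probes above background on all arrays (1.21). Further key members that were not called were Il6st, the shared signal chain of IL-6 type receptors (0.15 in the HCC comparison and 0.84 in ICC), Il18bp, an inhibitor of IL-18 (0.10 and -0.68), Il13ra1 (-0.49 and 0.25) and Il17ra (0.01 and 0.21), while Il4ra differed by 0.57 in ICC, not called. In ICC, Il6st was called on slide 2 alone, under quantile normalization and relative to probes above background on all arrays, and Il18bp with the slide row as a block. Il1a, Lta and Il22ra2 were too dim to test in either comparison, and Il10 in ICC. Of 11 genes of IL-6 type signalling outside the symbol rule, Socs1 (1.81) and Socs3 (1.65), feedback inhibitors of JAK and STAT signalling, were higher.

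Further receptors rose with less margin. Il17re, a receptor chain for IL-17C, rose by 2.30, from -4.50 to -2.99 to -2.35 to -0.45, but the call was lost among lower-row arrays alone (1.79). Il10ra rose by 1.03 and was 1.00 and not called with the mouse as a replicate block, and its call also went without p53LKO HCC 3976 T1 or 3733 T1 and without ICC 3976 T8 or 5283 T20. Il27ra (1.14), Il13ra2, a decoy for IL-13 (1.25), and Il17rd (1.25) overlapped between the groups, and with the replicate block gave 1.07, 1.05 and 1.16, none called. The Il27ra call was also lost without p53LKO HCC 5283 T7, under normexp and under quantile normalization. The Il13ra2 call was also lost under normexp, under quantile normalization, with the slide row as a block and among lower-row arrays alone. The Il17rd call was lost in 13 of 23 alternatives, including without p53LKO HCC 3733 T1 or 3975 T4 and without ICC 3731 T3 or 3976 T8.

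The 6 falls were of receptor chains and 1 cytokine. Il22ra1 read -0.17, -1.69, -0.63, -0.35 and 0.55 in p53LKO HCC and -3.71, -4.79, -3.01, -2.87 and -4.13 in ICC, where it was well above background on no array, so the fall is given as a bound: at least 4.79-fold lower, with an adjusted p of 0.000387 by limma. That bound belongs to the main processing, since over the alternatives the log2 change ran from -3.55 to -1.71. The dimmer Il22ra1 probe was above background on 3 HCC arrays and on no ICC array. It was tested and not called, so the 2 probes differ in call, and it gives no size for the fall. Il22 was likewise above background on all 5 HCC arrays (-1.92 to -0.98) and on no ICC array, at least 2.45-fold lower (adjusted p = 0.000239 by limma), and was not called under normexp (-0.84). The second chain of the receptor, Il10rb, differed by -0.81 and was not called. Il17rb, a receptor chain for IL-25, read 0.96, 2.06, 1.47, 1.88 and 1.73 in HCC and 0.56, -0.56, 0.04, -0.20 and -0.44 in ICC, a log2 change of -1.74 (SE 0.27, adjusted p = 0.00062). A second, dimmer Il17rb probe was above background on no ICC array and gives no size. Il3ra fell by 2.38, reading -0.12, -0.09, 2.76, 0.14 and 1.43 in ICC with 3976 T8 inside the HCC range, and was not called with the slide row or the mouse as a block (-2.05 with the mouse) or among lower-row arrays alone. Tnfrsf12a fell by 1.19, from 4.94 to 6.02 to 3.57 to 4.98, and the call was lost in 6 of 24 alternatives, among them the replicate block (-0.88), slide 2 alone and lower rows alone. Its ligand Tnfsf12 differed by -0.56 on its brighter probe, not called, and by -1.16 on the dimmer one, called.

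The sizes given here depend on the background correction. Under normexp 33 of the 34 ICC changes were smaller, 19 of them by over 1.5-fold. Among genes still called, Tnfrsf11b was then 5.85, Il18r1 2.38, Il1rl1 2.22, Il7r 1.98, Tnfrsf18 1.77, Tnfsf13b 1.66, Il5ra 1.57, Tnfrsf25 1.36, Tnf 1.33, Il2ra 1.31, Il17re 1.16, Tnfrsf13c 1.09 and Il11 1.01 on the log2 scale.

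**Figure D4:**
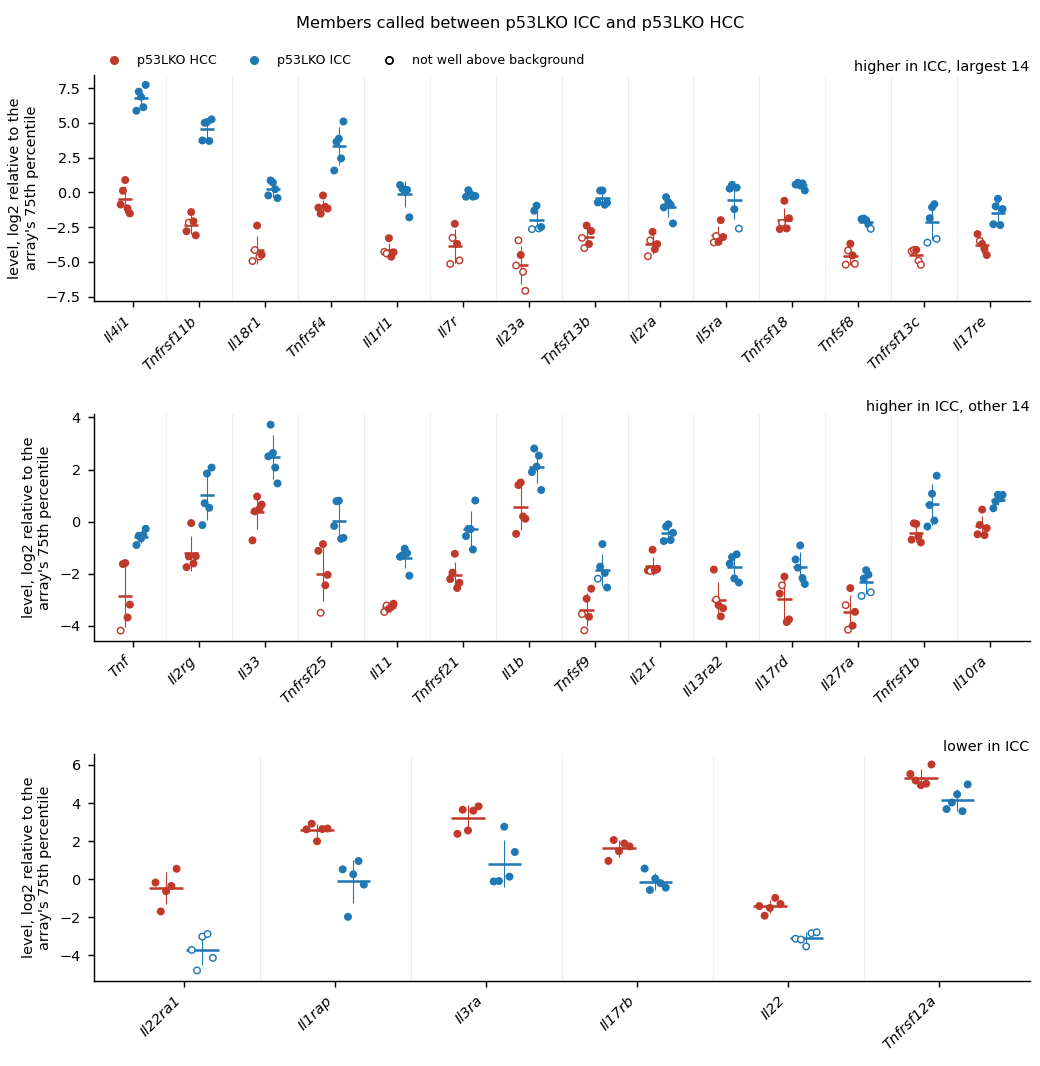
Points give the level (y axis, log2 units from the array's 75th percentile) of the 34 genes called between p53LKO HCC (red) and p53LKO ICC (blue) in each tumor, with the group mean and SD, and open points are not well above background. Il4i1 and Tnfrsf11b stand apart by about 7 log2 units, and open HCC points mark rises, such as Il23a and Il18r1, whose lower side is near background.

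Genes that lie next to each other in the genome did not always move alike. Members formed 19 stretches of neighbouring genes with 50 members, and 9 stretches had at least 2 members tested in both comparisons, of which 6 held a called gene. On chromosome 1, in the order Il1r2, Il1r1, Il1rl1 and Il18r1, the HCC differences were 2.18, 1.29, -1.61 and -0.84, and the ICC differences -0.07, -0.20, 4.03 and 4.35. The first pair was thus called in the HCC comparison only and the second pair, of which Il1rl1 was called in both, rose in ICC. The neighbours Il4ra and Il21r on chromosome 7 were both called higher in p53LKO HCC. Tnfrsf4 and Tnfrsf18 on chromosome 4 were both called higher in ICC, whereas of Il17re and Il17rc on chromosome 6 only Il17re was called (2.30 against -0.93) and of Il2ra and Il15ra on chromosome 2 only Il2ra (2.69 against -0.70). Among lower-row arrays alone it was Il17rc that was called (-1.18) and not Il17re, and Il17rc was also called with the slide row as a block and without p53LKO HCC 3975 T4, ICC 3976 T8 or ICC 5283 T20. Neighbours were taken from the GRCm38 gene order.

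**Figure D5:**
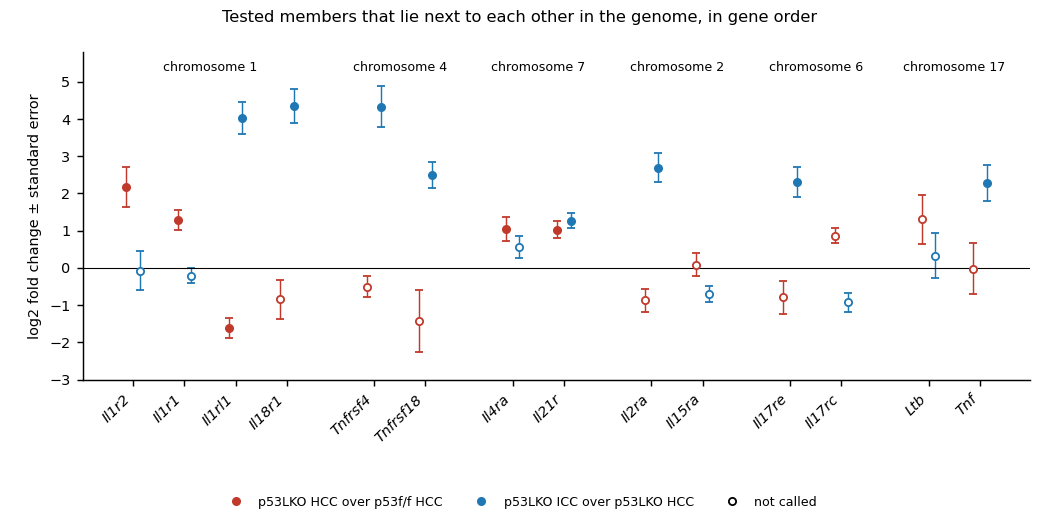
Points give the log2 fold change with its standard error (y axis) for tested members in 6 stretches of neighbouring genes (x axis, in gene order), red for p53LKO HCC over p53f/f HCC and blue for p53LKO ICC over p53LKO HCC, with open points not called. On chromosome 1 the red points run from 2.18 at Il1r2 to -1.61 at Il1rl1, and the blue points from -0.07 at Il1r2 to 4.35 at Il18r1.

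Markers of several cell types moved with the ICC comparison. Of 8 T cell markers tested, Cd3d (2.08), Cd3g (1.84), Cd2 (1.66) and Cd5 (1.60) were higher and Cd4 was lower (-2.76), and the mean level of the list ran from -1.61 to -0.10 in HCC and from -0.68 to 0.24 in ICC. Cd3e differed by -0.57 and Lck by 0.99 (adjusted p = 0.0251 and 0.0418 by limma, both under 2-fold), and Cd8a by -0.075. Of 4 B and plasma cell markers Jchain (4.97) and Ms4a1 (1.81) were higher, the list running from -3.45 to -2.08 in HCC and from -1.76 to -0.03 in ICC, while Blk was above background on no array. Of 9 stellate cell and fibroblast markers 5 were higher, among them Col3a1 (2.78), Col1a2 (2.75) and Col1a1 (2.64), and the list ran from 1.70 to 3.55 in HCC and from 3.33 to 4.18 in ICC. The leukocyte marker Ptprc differed by 0.56 and was not called, and 0 of 9 macrophage and 0 of 6 neutrophil markers were called. Of 6 natural killer cell markers, Klrd1 was higher (1.10), while Nkg7 differed by -0.49 (adjusted p = 0.0373 by limma, under 2-fold). Of 7 endothelial markers Vwf was higher (1.46), while Kdr differed by -0.94 (adjusted p = 0.00693 by limma, under 2-fold), and the list ran from 0.19 to 1.90 in HCC and from -0.20 to 1.64 in ICC. The part of these cell types in the differences of the members was not tested.

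Tumor markers went with the labels in part. Of 7 biliary markers tested, Epcam (at least 94-fold, above background on no p53LKO HCC array), Spp1 (4.73), Krt19 (4.67) and Krt7 (2.70) were higher in ICC, and the list ran from -3.23 to -1.81 in HCC and from -0.24 to 0.15 in ICC, while Sox9 (0.30), Cldn4 (-0.53) and Cftr (0.67) were not called. Of 10 hepatocyte markers, 5 were lower in ICC (Apoa1 -2.76, Hnf4a -2.03, Alb -1.91, Ttr -1.73 and Apob -1.53), the list running from 6.45 to 6.99 in HCC and from 4.20 to 6.52 in ICC, and all 10 were above background on every ICC array. Downstream of the receptors, 6 of 25 adaptor and NF-kappaB genes were higher in ICC, namely Traf1 (4.38), Birc2 (1.92), Relb (1.82), Tnfaip3 (1.28), Traf6 (1.22) and Nfkb2 (1.01). Ikbkb, a kinase that activates NF-kappaB (-1.13), and Cflar, an inhibitor of death receptor signalling (-1.09), were lower. Of 7 TNF superfamily genes outside the symbol rule, Relt was higher (3.86) and Ltbr, the lymphotoxin beta receptor, lower (-1.06).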

How the data were processed

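RNA of 15 tumors was labelled with Cy3 and hybridised to Agilent mouse 8x60K one-colour arrays, and the authors read the scans with Agilent Feature Extraction 10.7.3.1. The deposited scanner files give a background-subtracted signal intensity per spot, and the authors also deposited a table of log2 values from these arrays, normalized in GeneSpring. Probe positions are those of the files (mm9). Spots of a probe were averaged, log2 was taken and each array's 75th percentile subtracted. Both comparisons were fitted across all probes with limma 3.58.1 (lmFit and eBayes, R 4.3.3), with Benjamini-Hochberg adjustment over all tested probes. Probes entered a test where 3 or more arrays of either group were flagged as clearly above local background, and calls needed an adjusted p under 0.05 and over 2-fold. A gene with all arrays of a group below background is given as a bound against the lowest signal measured above background. Arrays have no read depth, and the number of arrays (5 against 5) limits the precision. An exact permutation test of a single gene over the 252 splits cannot go below p = 0.00794.

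Groups were taken from the sample labels. Gene names are those of the array, 140 of 142 probes matched a RefSeq accession, and a further receptor gene with such a symbol and a few genes of the marker and pathway lists are not reported here. The members, lists, tests and the rule for named genes were chosen with earlier results of these data known. The rule named, in each comparison, up to 12 rises and 12 falls by size among called members whose groups did not overlap, and fixed key members of each family whatever their result. Other members were named as part of a described family after their values were seen. The main ICC fit was unpaired, and the mouse entered only as the block of an alternative. HCC and ICC of the same p53LKO mouse were matched by the mouse numbers. As a check, their departures from the group means correlated at -0.142 to 0.066 in the 4 pairs and at -0.263 to 0.283 in 21 pairs of other mice, so same-mouse tumors did not deviate together. The fit and its calls were also run on generated data in which 200 probes carried a set log2 change of 2. Of these, 78% were recovered in the HCC comparison and 74% in the ICC comparison, with 8 and 6 false calls. The alternatives were another background correction (normexp, offset 50), normalization and scaling, filters on dim probes, slide, row and mouse as blocks, the mean of the tumors of mouse 3717, the methods' t-test, the authors' table, every probe in place of the brightest, and each array left out in turn. The authors' table served for the HCC comparison only, since its ICC columns were centred differently.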

Additional observations from a re-analysis of the deposited data

Results flagged for a closer look

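In 13 of 171 group values over the 57 genes examined, 1 of the 5 tumors of a group stood apart from the other tumors (a gap over 0.71 of the group's range, Dixon's criterion), where chance alone gives about 9. In p53f/f HCC, Il2rg read -1.76 in 3716 T1 (others -1.36 to -1.21), Il17re -1.31 in 3717 T2 (others -3.55 to -3.05) and Il7r -1.44 in 3715 T2 (others -3.71 to -3.19). Also in p53f/f HCC, Il6 read -3.99 in 3715 T2 (others -2.37 to -1.88) and Tnfsf8 -6.28 in 3717 T1 (others -4.29 to -3.77), both low values being not well above background. Tumor 3731 T2 stood high within p53LKO HCC in 3 receptor genes. There Il1rl1 read -3.29 (others -4.62 to -4.27), Il21r -1.08 (others -1.89 to -1.82) and Il2rg -0.055 (others -1.75 to -1.32). In the same group Il5ra read -1.99 in 3733 T1 (others -3.59 to -3.13), and Il10 read -4.25 in 5283 T7 (others -5.40 to -5.07), where no array of the group was well above background for Il10. Within ICC, tumor 5283 T20 was low for Il1rl1 at -1.79 (others 0.08 to 0.53) and high for Il15ra at 4.81 (others 3.80 to 4.01), and 3977 T5 was high for Il6ra at 3.46 (others 2.25 to 2.57). The Il21r call between the HCC groups was lost without 3731 T2, while the Il1rl1 and Il5ra calls held without each of these tumors.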

How the results depend on the processing

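Of the 11 members called between the HCC groups, 4 (Il3ra, Tnfrsf12a, Il1r1 and Il5ra) were called under every alternative that measured them, as were 19 of the 34 called in ICC, and no called member changed direction. Of the members examined and not called, 18 between the HCC groups and 9 in ICC were called under no alternative, and 20 and 4 changed sign under at least 1. Between the HCC groups, 9 members were called higher and 2 lower. The counts were 4 and 1 under normexp (6.1% of members, beside 8.4% of all genes), 26 and 1 relative to 7 spike-in probes, and 6 and 7 relative to the 75th percentile of probes above background on all arrays. With no limit on the fold change 12 were higher and 5 lower (20.7%, beside 29.5% of all genes). Among the 45 members above background on every array 0 were lower by limma (1 at an unadjusted p under 0.05, 0 by the methods' t-test), since neither Il5ra nor Il1rl1 was among them. Under that filter 434 of all 12191 genes were lower, and 13.3% of members were called beside 9.71% of all genes. Leaving out each array gave 7 to 10 higher and 2 to 5 lower, with 4 lower without p53f/f HCC 3681 T1 or p53LKO HCC 5283 T7 and 5 without p53LKO HCC 3731 T2. The share called was then 11% to 17.1% of members, beside 13.4% to 18.1% of all genes. In ICC, 28 were higher and 6 lower. Among the 42 members above background on every array 8 were higher and 4 lower (28.6%, beside 24.9% of all genes). With no limit on the fold change 29 were higher and 16 lower (56.2%, beside 47.6% of all genes). Leaving out each array gave 25 to 30 higher and 6 to 9 lower (40% to 46.2%, beside 25% to 30.1% of all genes). With the mouse as a replicate block, a fit in which HCC 3975 T4 and ICC 3977 T5 carry no weight, 23 were higher and 4 lower (33.8%, beside 24.8% of all genes). In it 26 calls were kept, 8 lost and 1 (Il7) gained, and each lost call is given beside its gene. The cause of these changes was not tested, apart from the smaller number of members under the strict filter. With the tumors of mouse 3717 averaged, 7 were higher and 2 lower between the HCC groups (11%, beside 13.9% of all genes). Dim signal limits the rises of Il7 and Il1r2 between the HCC groups and of Il23a, Tnfrsf13c, Il18r1, Il7r and Tnfsf8 in ICC, whose lower group was mostly not above background.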
